A study of Sus scrofa with 2 samples.

Results

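The insulin-like growth factor (IGF) system was described by 10 genes, of the 11071 genes that could be named in the data. They are the ligands IGF1 and IGF2, the receptors IGF1R and IGF2R, the adaptor IRS1 and the binding proteins IGFBP2, IGFBP3, IGFBP5, IGFBP6 and IGFBP7. The members were chosen by name, and a transcript was assigned to a gene when its RefSeq accession, without the version number, belonged to that pig gene. The transcripts of a gene were summed. The samples were endometrium, the inner lining of the uterus, of 2 pigs of the Yorkshire breed at gestation day 18 (YK18), with 1 RNA-seq library per animal, called pig 1 and pig 2 (replicates 1 and 2). Both sows had been artificially inseminated, and the uterine horns had been flushed before the tissue was taken. No other group was analysed here and no condition was compared with another. With 2 pigs an exact sign-flip test of a paired difference cannot give a p below 0.5. Levels are therefore given for each pig, as RPKM, the reads of a transcript per 1000 nt of its length and per 1000000 reads of the library. Where length is left out, the reads per 1000000 reads are called RPM.

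IGF1 and IGF2 are small secreted proteins related to insulin, made in the uterus and by the conceptus, which drive growth and survival of cells. Both signal through IGF1R, a receptor tyrosine kinase, which phosphorylates adaptors such as IRS1 and so switches on phosphatidylinositol 3-kinase (PI3K), AKT and the RAS to ERK chain. IGF2R carries no kinase; it takes up IGF2 for breakdown in the lysosome and also carries lysosomal enzymes. The IGF binding proteins (IGFBPs) hold the ligands outside the cell, prolong their life and control their access to IGF1R, until proteases such as the pappalysins cut them and release the ligand. In the pig these genes have long been studied around implantation, when the conceptus elongates and attaches to the uterine lining.

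The receptors and 1 binding protein made up nearly all of the RPKM of the IGF system. The 5 binding proteins summed to 4442 RPKM in pig 1 and 5331 RPKM in pig 2, which was 62.7% and 69.5% of the summed level of the members (66.1% ± 4.82, SD, n = 2). The receptors summed to 2628 and 2326 RPKM (37.1% and 30.3%). IRS1 held 0.235% and 0.199%, and the ligands held 0.0298% and 0.0110%. Of the 10 members, 9 were above 0 in both libraries, and 7 of them were at 10 RPKM or more in both. Over all genes that could be named, 6985 of 11071 were above 0 in both and 4299 (38.8%) were at 10 RPKM or more in both. The mean of 6 members was above the median of these 6985 genes, which was 33.3 RPKM in pig 1 and 36.7 RPKM in pig 2.

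**Figure D1:**
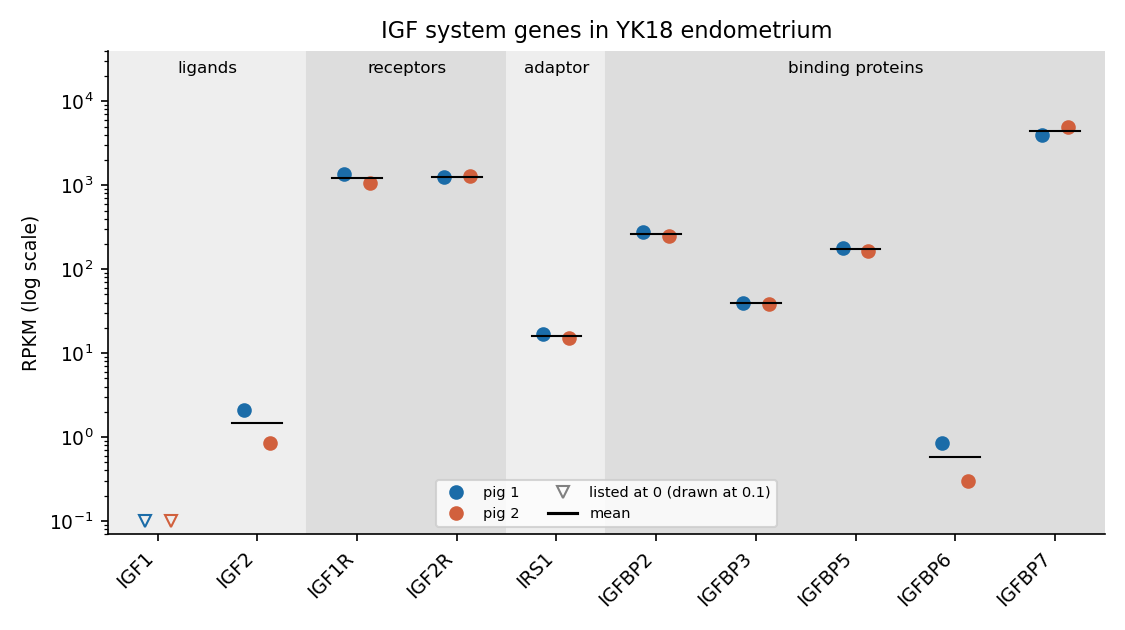
Level of each IGF system gene in RPKM (log axis), with a point for each pig and a black line at the mean of the 2 pigs. IGFBP7 and both receptors lie highest in both pigs, from 1052 to 4876 RPKM, IGF2 and IGFBP6 lie near or under 2 RPKM, and IGF1, listed at 0, is drawn as open triangles at 0.1.

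Neither ligand was counted at a level near that of its receptor. IGF1 is represented by 6 transcripts, NM_214256.1 and XM_005664195.1 to XM_005664199.1, and all 6 were listed at 0 in pig 1 and in pig 2. The zeros are given as listed, since genes that many cells of this tissue use were listed at 0 in the same table, among them KRT8, a keratin of simple epithelia, and ACTA2, the actin of smooth muscle. IGF2, the other ligand, is listed as NM_213883.2 and was at 2.11 RPKM in pig 1 and 0.841 RPKM in pig 2 (1.47 ± 0.897, SD, n = 2). These values rest on 8 and 3 reads. Among genes above 0 in both libraries, IGF2 was at percentile 18.0 in pig 1 and 8.64 in pig 2, low in both pigs. No ratio of IGF2 to IGF1 is given, because IGF1 was at 0.

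The reads behind these values were worked out from the RPKM itself. Since whole reads were divided, low RPKM values rise in steps of 1 read. From the steps, the libraries held 7466979 and 7023108 reads, of which the members took 11246 (0.151%) and 11514 (0.164%). The length given for a transcript is the smallest that made its reads whole in both libraries, so the true length and reads are these or a whole multiple of them. Where they are a multiple, the RPM given here is too low and the intervals are too wide. With these lengths the reads of all transcripts came to 90.2% and 90.3% of the library totals. The lengths are short, with a median of 216 nt over the mRNA rows above 0, which is less than mRNAs usually measure, so the RPKM of a gene is not per length of its whole mRNA. What the lengths stand for is not given in the sources used here. A 95% exact binomial interval of the IGF2 RPM ran from 0.463 to 2.11 in pig 1 and from 0.0881 to 1.25 in pig 2. These intervals overlap. Reads from PCR are not independent molecules, so all such intervals cover counting error only.

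The members differed in how many of their annotated transcripts were found in the table. RefSeq of the assembly Sscrofa11.1 lists 8 transcripts of IGF1, of which 6 were found in the table, and 17 of IGF2, of which 1 was found. For IGF1R 1 of 4 was found and for IRS1 1 of 3, while both transcripts of IGFBP6 and the single transcript of each of the remaining members were found. Genes with several transcripts in the table were listed at 0 more often. Every transcript was at 0 in both libraries for 21.1% of the 8238 genes with 1 transcript, for 40.4% of the 1710 genes with 2 and for 51.9% of the 52 genes with 6, the number of IGF1. Over all genes the share was 26.6%. Among the members, the 8 with 1 transcript were all above 0, whereas the 2 with more than 1, IGF1 and IGFBP6, reached at most 0.857 RPKM. IGF2, with 1 transcript, was also low, at 2.11 and 0.841 RPKM. Whether the number of transcripts had a part in the level of a ligand was not tested. Whether reads shared by transcripts of a gene were left out in the counting was not tested either.

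**Figure D2:**
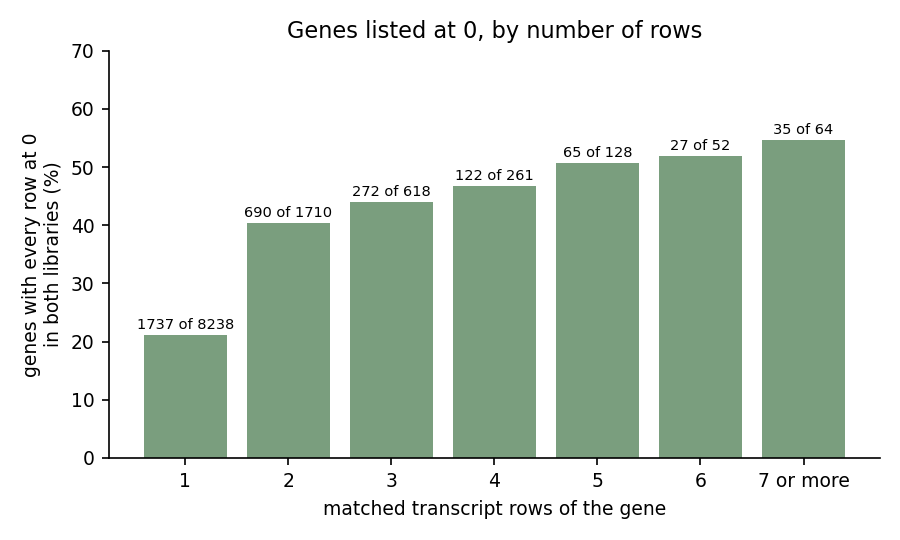
Share of genes with every transcript at 0 in both libraries (%), by the number of transcripts of the gene that could be named in the table, with the genes counted above each bar. The share is 21.1% for genes with 1 transcript and 51.9% for genes with 6, such as IGF1.

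Both receptors were abundant, at levels that could not be ordered. IGF1R (NM_214172.1), the signaling receptor, was at 1373 RPKM in pig 1 and 1052 RPKM in pig 2 (1212 ± 227.2, SD, n = 2). IGF2R (NM_001244473.1), the clearance receptor, was at 1255 and 1274 RPKM (1265 ± 13.4, SD, n = 2). IGF1R was the higher of the pair in pig 1 and IGF2R in pig 2, and the ranges of the genes overlap. On the log2(RPKM + 1) scale, the difference of IGF2R minus IGF1R was -0.13 in pig 1 and 0.28 in pig 2 (0.07 ± 0.29, SD, n = 2). Both receptors stood high among all genes, IGF1R at percentiles 95.01 and 93.0 and IGF2R at percentiles 94.4 and 94.5.

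The order of the receptors changed when length was left out. IGF1R had 2071 and 1492 reads over 202 nt, which is 277 and 212 RPM. IGF2R had 1481 and 1414 reads over 158 nt, which is 198 and 201 RPM. In RPM, IGF1R was thus above IGF2R in both pigs, with intervals of 266 to 290 against 188 to 209 in pig 1 and of 202 to 224 against 191 to 212 in pig 2. The intervals were apart in pig 1 and overlapped in pig 2. RPM values favor long transcripts, and RPKM values depend on the short lengths used as divisors, so neither scale settles the order.

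IRS1, the adaptor that links IGF1R to PI3K, was far lower than the receptors. IRS1 (NM_001244489.1) was at 16.7 RPKM in pig 1 and 15.3 RPKM in pig 2 (16.0 ± 1.01, SD, n = 2), at percentiles 42.6 and 39.96. In RPKM, IGF1R was 82.3 times as high as IRS1 in pig 1 and 68.9 times in pig 2. The reads of IRS1, 150 and 129, were divided by 1204 nt, the greatest length among the members. In RPM IGF1R was 13.8 and 11.6 times as high, so the direction held and the size depended on the length.

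The binding proteins spanned the widest range of levels, and IGFBP7 was the highest member in both pigs. IGFBP7 (NM_001163801.1) binds IGFs only weakly and is known as a matrix protein of vessels and stroma. It was at 3944 RPKM in pig 1 and 4876 RPKM in pig 2 (4410 ± 659, SD, n = 2), from 6596 and 7671 reads over 224 nt. It stood at percentiles 98.8 and 98.9 of the genes above 0. IGFBP7 alone held 88.8% and 91.5% of the RPKM of the 5 binding proteins, and 87.5% and 90.5% of their RPM. The other 4 binding proteins, which together held the rest, were all below both receptors.

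IGFBP2 and IGFBP5, binding proteins of high affinity for the ligands, followed at middle to high levels. IGFBP2 (NM_214003.1) was at 280.0 RPKM in pig 1 and 249.6 RPKM in pig 2 (265 ± 21.5, SD, n = 2), from 575 and 482 reads. IGFBP7 was 14.1 and 19.5 times as high as IGFBP2. IGFBP5 (NM_214099.1), which also binds to extracellular matrix, was at 178 and 167 RPKM (172 ± 7.80, SD, n = 2), from 280 and 247 reads. IGFBP2 was 1.54 ± 0.0554 times as high as IGFBP5 (SD, n = 2), and the ranges of these genes did not overlap. Their percentiles were 78.5 and 76.2 for IGFBP2 and 71.7 and 70.2 for IGFBP5.

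IGFBP3, the main carrier of IGFs in blood serum, and IGFBP6, which prefers IGF2 over IGF1, were lower. IGFBP3 (NM_001005156.1) was at 39.6 RPKM in pig 1 and 38.6 RPKM in pig 2 (39.1 ± 0.773, SD, n = 2), near the middle of all genes at percentiles 52.0 and 50.6. IGFBP6 has 2 transcripts in the table. Of these, NM_001100190.1 was listed at 0 in both libraries, and XM_005652513.1 was at 0.857 and 0.304 RPKM, from 3 reads and 1 read. IGFBP6 was thus the lowest member above 0, and its range of levels overlaps that of IGF2.

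The order of the members by level was the same in both pigs apart from the receptors. It ran from IGFBP7 through IGF2R and IGF1R to IGFBP2, IGFBP5, IGFBP3, IRS1, IGF2 and IGFBP6, with IGF1 listed at 0. The neighbors whose ranges overlapped were the receptors, and IGF2 with IGFBP6. In RPM IRS1 moved above IGFBP3 in both pigs, by 1.83 and 1.72 times, while in RPKM it was 0.421 and 0.396 times as high. Their lengths in the denominator were 1204 nt for IRS1 and 277 nt for IGFBP3. Both are the smallest lengths that made the reads whole, so the order of IRS1 and IGFBP3 in RPM is not settled.

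**Figure D3:**
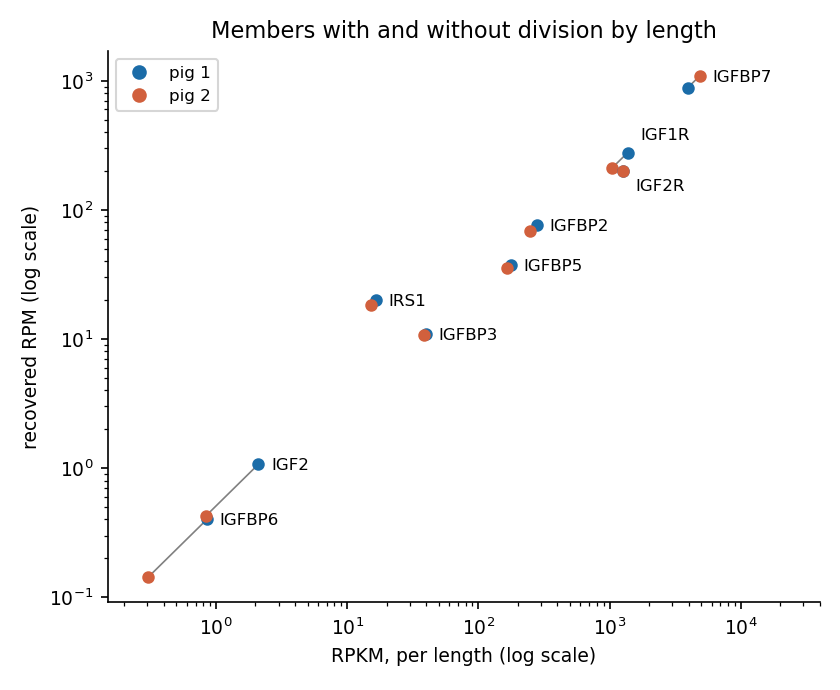
RPKM of the 9 members above 0 (horizontal, log axis) against their recovered RPM (reads per 1000000, vertical, log axis), with a line joining the pigs. IRS1 lies to the left of IGFBP3 but above it, since its reads were divided by 1204 nt and those of IGFBP3 by 277 nt, and IGF1R and IGF2R lie together.

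Between the pigs, the members were near the share of all genes that differed. On the log2(RPKM + 1) scale, none of the 8 members with a mean of at least 1 RPKM differed at least 2-fold. Over the 6476 genes with such a mean, 7.49% were at least 2-fold higher in pig 2 and 3.17% at least 2-fold lower, so a count of 0 of 8 is near the share over all genes. The median difference of pig 2 minus pig 1 was -0.11 for the members and 0.07 for all genes, and the median size of the difference was 0.14 and 0.27. IGF1 and IGFBP6 had means under 1 RPKM and are not among the 8. No test was made, since both libraries are of 1 group.

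The largest difference among well-counted members was that of IGF1R, which was lower in pig 2 by a log2 difference of -0.38. Its reads per library total in pig 2 were 0.766 times those in pig 1 (95% exact binomial interval 0.716 to 0.819). IGFBP7 was higher in pig 2, by 0.31 on the log2 scale and 1.24 times in reads (1.196 to 1.28). For the other 6 of the 8 members the interval held 1. These were IGF2R at 1.02 (0.943 to 1.09), IGFBP2 at 0.891 (0.788 to 1.01), IGFBP5 at 0.938 (0.787 to 1.12), IGFBP3 at 0.972 (0.701 to 1.35), IRS1 at 0.914 (0.717 to 1.16) and IGF2 at 0.399 (0.0681 to 1.66). Over all 6476 genes, the interval lay above 1 for 18.6% and below 1 for 12.4%. With 1 of 8 members above and 1 below, the members were near these shares. The intervals compare these libraries, not conditions, and do not include the spread between animals. IGF2 was under the 2-fold limit because of the pseudocount of 1, and its interval was wide enough to hold both no difference and a large fall.

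**Figure D4:**
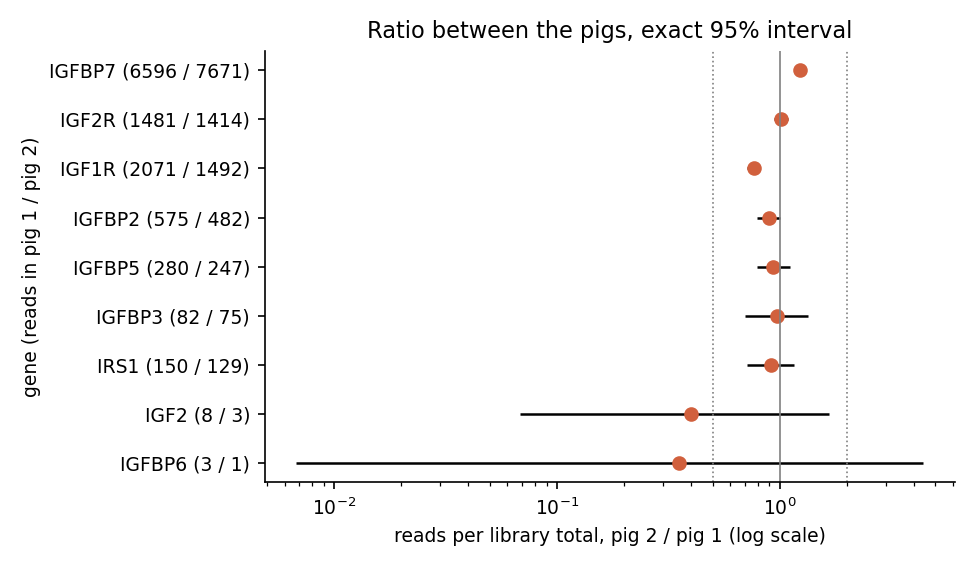
Reads per library total in pig 2 over pig 1 (log axis) for the 9 members above 0, with the reads of each pig in brackets, points for the ratio and bars for the exact 95% interval of counting error. Dotted lines mark 2-fold; IGF1R at 0.766 and IGFBP7 at 1.24 have intervals apart from 1, and the bars of IGF2 and IGFBP6, with 8 and 3 reads in pig 1, are the widest.

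The tissue label was compared with marker genes of the cell types that endometrium can hold. EPCAM, an epithelial adhesion protein, was at 5106 and 5128 RPKM, and the 6 epithelial markers summed to 11970 and 10845 RPKM with KRT8 at 0. Stromal markers, of which 5 of 7 were listed, summed to 69452 and 44378 RPKM, nearly all from COL3A1, and endothelial markers, 3 of 5, to 6408 and 6074 RPKM. Glandular secretion markers, 4 of 6 with SPP1 at 0, summed to 249 and 379.8 RPKM, and leukocyte markers, 4 of 5, to 713 and 1102 RPKM. Smooth muscle markers, 6 of 7 with ACTA2, CNN1 and MYLK at 0, summed to 125 and 113 RPKM. Skeletal muscle markers, 7 of 8, summed to 461 RPKM in pig 1 and 14.9 RPKM in pig 2. The trophectoderm list summed to 701 and 103 RPKM, nearly all from IFNG, with GATA3 and ELF5 at 0. In RPKM, pig 2 over pig 1, IGF1R was at 0.766 times beside a stromal sum at 0.639 times. Of the 5 stromal markers listed, 3 were lower in pig 2, COL3A1 among them, whereas DCN was at 1.29 times and VIM at 1.28 times. The epithelial and smooth muscle sums were each at 0.906 times, the trophectoderm sum at 0.148 times and the skeletal muscle sum at 0.0324 times. Of the 5 epithelial markers above 0, 3 were higher in pig 2 and 2 were lower. All 3 smooth muscle, 3 trophectoderm and 7 skeletal muscle markers above 0 were lower in pig 2. IGFBP7 was at 1.24 times beside a leukocyte sum at 1.55 times, with 4 of 4 leukocyte markers higher in pig 2. The glandular secretion sum was likewise higher, at 1.52 times, with 3 of 3 markers above 0 higher in pig 2. IGFBP7 also stood beside the stromal sum at 0.639 times and an endothelial sum at 0.948 times. In the endothelial sum VWF was at 1.11 times and the other 2 markers, KDR and PECAM1, were lower. The part of any cell type in the differences of IGF1R and IGFBP7 was not tested. In bulk tissue fewer cells of a type and less RNA per cell cannot be told apart.

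The genes around the members were taken from a list of 58 by their role in the pathway, of which 37 could be named in the table, 30 had reads in each pig and 6 had none in either. The insulin receptor INSR, the adaptors IRS2 and IRS4, the kinase AKT1 and the catalytic PI3K subunits PIK3CA and PIK3CB were not matched to any accession and are not analysed here. With a mean of at least 1 RPKM there were 27 genes, of which 2 were at least 2-fold higher in pig 2 and 1 was at least 2-fold lower. These 3 of 27 stand beside 10.7% of all genes past the limit in either direction (7.49% and 3.17%), so the pathway list was near the share over all genes. Their median difference was 0.06, and their median size of difference was 0.23. The genes past the 2-fold limit were PAPPA2, STC1 and STC2, of which PAPPA2 and STC2 rest on at most 20 reads in a library. Pathway genes other than these and the highest of each class were named after their values were seen.

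Of the other binding proteins, IGFBP4, which restrains IGF action until it is cut by pappalysin, was highest, at 253 RPKM in pig 1 and 204 RPKM in pig 2. In both pigs it stood between IGFBP2 and IGFBP5. IGFBP1, a binding protein of decidua and liver, had 0 reads and 1 read. IGFALS, which forms the serum complex with IGFBP3, was at 2.41 and 2.13 RPKM, and IGFBPL1 was at 0.509 and 0.271 RPKM. With IGFBP1 and IGFBP4 added to the 5 binding proteins, IGFBP7 still held 84.0% and 88.1% of their RPKM.

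Of the proteases that cut binding proteins, 4 of 5 could be named in the table. HTRA1, a secreted serine protease that cuts IGFBP5, was highest of the class at 641 RPKM in pig 1 and 837 RPKM in pig 2. PAPPA, the pappalysin that cuts IGFBP4, was at 267 and 163 RPKM, a log2 difference of -0.71. PAPPA2, a pappalysin that cuts IGFBP3 and IGFBP5, was at 4.75 and 11.2 RPKM, a log2 difference of 1.09, from 9 and 20 reads, at percentiles 27.7 and 36.4. The ratio of its reads was 2.36 (1.03 to 5.89), so its size is known only roughly.

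The stanniocalcins, secreted glycoproteins that inhibit the pappalysins, differed in opposite directions, and STC1 had the largest log2 difference of the pathway list. STC1 was at 702 RPKM in pig 1 and 63.5 RPKM in pig 2, from 1116 and 95 reads. This is a log2 difference of -3.45, and the ratio of reads was 0.0905 (0.0726 to 0.112). STC1 was at percentile 89.9 in pig 1 and 56.6 in pig 2. STC2 went the other way, at 2.86 and 9.13 RPKM, from 5 and 15 reads, with a ratio of 3.19 (1.10 to 11.2). IFNG, an interferon secreted by the pig conceptus, was also lower in pig 2, at 682 and 89.1 RPKM, as was the skeletal muscle sum. Whether these moved together for a shared reason was not tested, and 2 pigs cannot show it.

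**Figure D5:**
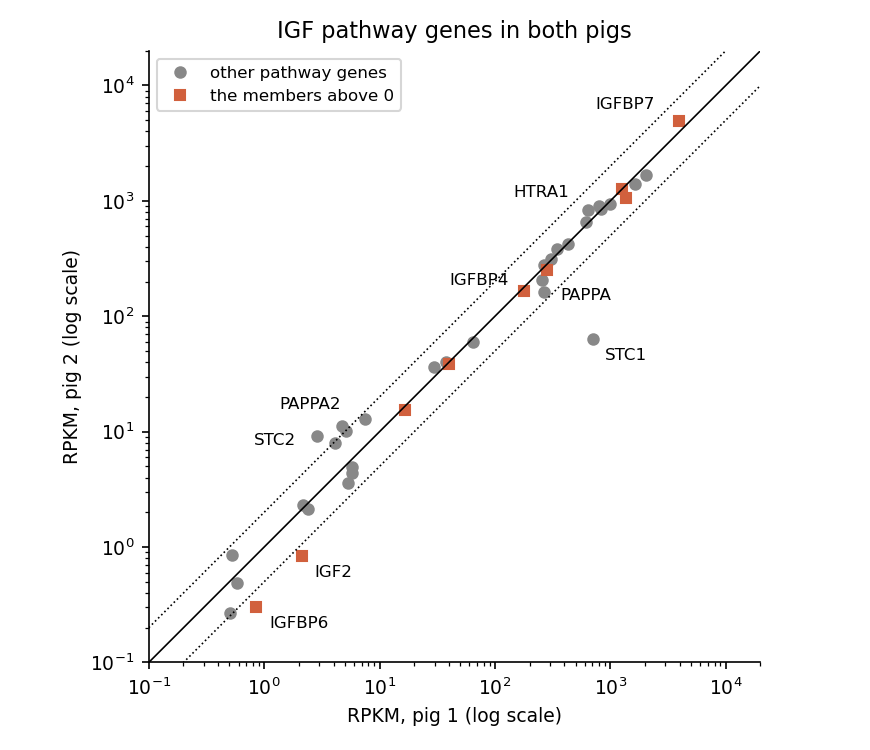
RPKM in pig 1 (horizontal) against pig 2 (vertical), both log axes, for the pathway genes above 0 in both libraries, with the members as squares. The solid line marks equal levels and dotted lines a 2-fold ratio of RPKM. STC1 (702 and 63.5 RPKM) lies far below the lines, and STC2 and PAPPA2 lie above them. The members IGF2 and IGFBP6, with 8 and 3 reads in pig 1, also lie below the lines.

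Inside the cell, PIK3R1, a regulatory PI3K subunit, was at 7.43 RPKM in pig 1 and 12.9 RPKM in pig 2, and the kinase AKT2 was at 5.78 and 4.37 RPKM, levels below that of IRS1 in both pigs. Of the AKT targets, MTOR, the growth-controlling kinase, was highest in RPKM, at 1623 and 1387 RPKM. GSK3B, a kinase that AKT inactivates, was at 997 and 932 RPKM. In RPM at the smallest lengths, GSK3B was at 126 and 117 and MTOR at 81.2 and 69.3. With a multiple of the MTOR length this order could reverse, so it is not settled. The transcription factor FOXO3, kept out of the nucleus by AKT, was at 37.8 and 40.4 RPKM. NFE2L2, which encodes NRF2, the antioxidant factor that IGF1R signaling can activate, was at 64.8 and 60.2 RPKM, summed over 3 transcripts.

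Of the other adaptors, GRB2 and GRB10 were higher than IRS1. GRB2, which couples receptors to RAS, was at 426 RPKM in pig 1 and 420.8 RPKM in pig 2, and GRB10, an inhibitory adaptor of IGF1R and the insulin receptor, was at 265 and 276 RPKM. SHC1 was at 5.16 and 10.1 RPKM, below IRS1, over 4 transcripts of which 2 were at 0, and GAB1 was listed at 0. INSRR, the orphan receptor of the insulin receptor family, was at 4.08 and 7.95 RPKM. IGF2BP2, which binds the mRNA of IGF2, was at 5.73 and 4.99 RPKM, and IGF2BP1 was listed at 0.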

How the data were processed

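Total RNA of endometrium from 2 YK18 pigs was sequenced, 1 library per pig. HTSeq was used by the authors for counting, and the deposited values are RPKM per transcript. The aligner, genome build and strand setting are not given in the sources used here. Accessions were paired with symbols through RefSeq of Sscrofa11.1, where 16072 of the 38222 accessions were found. Because the build of the files is not stated, no coordinates are given. A gene with unmatched accessions may be underestimated. Library totals and reads were recovered from RPKM steps, with lengths up to 20000 nt. All 25584 transcripts above 0 gave whole reads in both libraries at the smallest length that allowed it, within 1e-06 plus 2e-09 of the value. Recovery was tested on simulated data, where a recovered length passed if it divided the true length. The simulated lengths were all longer than the shortest recovered ones. This test therefore cannot tell true reads from a fraction of them. RPKM are not counts, so no count model was fitted. Differences are on log2(RPKM + 1), which understates those of low genes. Python 3.11.15, numpy 2.4.6, pandas 2.3.3, scipy 1.17.1 and matplotlib 3.10.9 were used.

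The members and lists were chosen with earlier results of these data known. The rule for named genes covers the 10 members, the highest gene of each pathway class, and pathway genes with a mean of at least 5 RPKM that differed at least 2-fold. Other named genes were chosen after their values were seen. Some genes of the lists are counted but not reported by name here. Alternatives were other pseudocounts, filters, scalings, folds, transcript sums, accession matching, reads in place of RPKM and each replicate left out. Division by the coding length was not run.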

Additional observations from a re-analysis of the deposited data

How the results depend on the processing

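No paired comparison of conditions was possible because both libraries are of 1 group. The ratio of IGF2 to IGF1 gave no value, since IGF1 was listed at 0, and division by the coding length was not run. The share of binding proteins ran from 62.7% to 69.5% across the values that each left out one replicate, and was 70.3% in RPM. The log2 difference of IGF2R minus IGF1R ran from -0.13 to 0.28 in the same way and was -0.28 in RPM, where lengths of 158 and 202 nt no longer divide the reads. The count of members at least 2-fold different, 0, became 1 with a pseudocount of 0.1, 1 with 0.01 (IGF2 in both, from 8 and 3 reads) and 1 with a limit of 1.5-fold, and stayed 0 under the other 5 settings. Over all genes the share past 2-fold was 10.7% with a pseudocount of 1 and 15.1% with 0.01. The count of pathway genes, 3, became 7 with 1.5-fold. No share over all genes at 1.5-fold is given here. The counts of members and pathway genes at 1.5-fold therefore cannot be read as high or low. The count of members above the median gene, 6, was 7 against all listed genes, 5 against genes with a mean of at least 1 RPKM, 7 in RPM and 6 without either replicate. Of 45 ratios of single members between the pigs under other settings, 43 moved by less than the SD over all genes, and IGF2R, 0.02, became -0.07 and -0.01 after rescaling. IGFBP6 became 0 when the version number had to match. Depth limits IGF2 and IGFBP6, and 2 pigs give only a rough spread.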

Other observations

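The RAS to ERK chain, the other arm below IGF1R, was listed in part. NRAS, a membrane switch, was highest of its class in RPKM, at 797 RPKM in pig 1 and 905 RPKM in pig 2. In RPM at the smallest lengths NRAS was at 33.5 and 38.0 and MAP2K1 at 158 and 167. A multiple of a length would raise the RPM, so the order of NRAS and MAP2K1 in RPM is not settled. Of the kinases of the chain, MAP2K1 was at 618 and 654 RPKM and MAP2K2 at 348 and 384.5 RPKM. BRAF, with 1 transcript, was listed at 0. TSC2, a brake on MTOR, is listed with 7 transcripts, all at 0. NRAS, MAP2K1 and MAP2K2 each differed by less than 2-fold between the pigs.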
